A study of Homo sapiens with 8 samples.

Results

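The genes described here are 50 genes of DNA replication licensing and S phase, listed by name, with earlier results of these data known. A gene entered when a probe set carried its symbol alone in the array's gene table. All 50 had such a probe set, 48 of them 1 and the others, UHRF1 and CLSPN, 2 each, so that 52 of the 21214 probe sets with a gene name belonged to the group. By role they divide into 8 regulators of the step from G1 to S phase, 11 licensing genes, 6 genes of helicase activation, 12 genes of the replication fork, 4 genes of nucleotide supply and 9 genes of the S phase checkpoint, repair and chromatin. No filter on low values was applied, so every one of the 50 entered every comparison.

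The cells were T47D, a cell line derived from a luminal breast carcinoma. All of them carried a lentivirus for a conditional short hairpin RNA, directed at EglN2 in one line and named Scr, the control, in the other. EglN2 is one of the prolyl hydroxylases through which cells sense oxygen. RNA was taken at day 0, before doxycycline, or at day 2, after 48 h of doxycycline, which the treatment protocol gives at 1 ug/ml. The 4 groups were Scr day 0, Scr day 2, EglN2 shRNA day 0 and EglN2 shRNA day 2, with 2 arrays each and 8 in all. The labels name no clone, pool or second EglN2 hairpin, and give no origin for the replicates. The p-values therefore cover the variation among these 8 samples alone, and that variation could be technical.

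A cell copies its DNA once per division by separating the loading of the replicative helicase from its activation. In G1, the origin recognition complex (ORC), CDC6 and CDT1 load the ring of MCM2 to MCM7 onto DNA, which is called licensing, and geminin (GMNN) later blocks CDT1. At the start of S phase, CDC45 and the GINS complex join the ring and turn it into an active helicase, after which the polymerases, primase, the sliding clamp PCNA and its loader RFC copy the strands. Cyclin E with CDK2, and the E2F transcription factors, control this step, and ribonucleotide reductase, thymidylate synthase and thymidine kinase supply the nucleotides.

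Values are log2 levels after RMA, in which a difference of 1 is a doubling. For each gene the pair of values of a group is given as replicate 1 and then replicate 2, and each difference has its standard error (SE) from a limma fit of all 8 arrays. Precision is set by how few arrays there are: the median SE was 0.12 for a difference between groups and 0.17 for the difference between the changes of the lines. The hairpin's target read 8.97 and 9.0 in Scr day 0, 8.81 and 8.90 in Scr day 2, 8.85 and 9.04 in EglN2 shRNA day 0, and 8.26 and 8.29 in EglN2 shRNA day 2, on a probe set shared with the RAB4B-EGLN2 read-through transcript. Between days it differed by -0.67 with the EglN2 hairpin (SE 0.11, limma adjusted p = 0.134). The luminal markers ESR1, PGR, GATA3, FOXA1, KRT8, KRT18, KRT19, EPCAM and CDH1 had mean levels at or above the percentile of 81.5 among named probe sets. The leukocyte marker PTPRC was at the percentile of 2.4 and the endothelial marker KDR at 14.5, while COL1A1 was at 64.4 and KRT14 at 55.5, and the other 11 markers of leukocytes, endothelium, fibroblasts and basal epithelium were at 5.0 to 36.9.

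In every group the replicates differed in the same direction for most of these genes. Replicate 2 read above replicate 1 for 43 of the 50 genes in Scr day 0, 41 in Scr day 2, 46 in EglN2 shRNA day 0 and 40 in EglN2 shRNA day 2. Over all named probe sets that share was 46.9%, 49.6%, 46.2% and 42.9% in the same order. In 29 of the 50 genes replicate 2 was the higher array in all 4 groups, against 9.61% of all named probe sets. The median gap was 0.21 in Scr day 0, the largest of the 4 groups, and Scr day 0 replicate 1 was the array with the lowest value for 25 of the 50 genes. EglN2 shRNA day 2 replicate 1 held the lowest value of another 16. The labels do not say what a replicate number stands for.

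**Figure D1:**
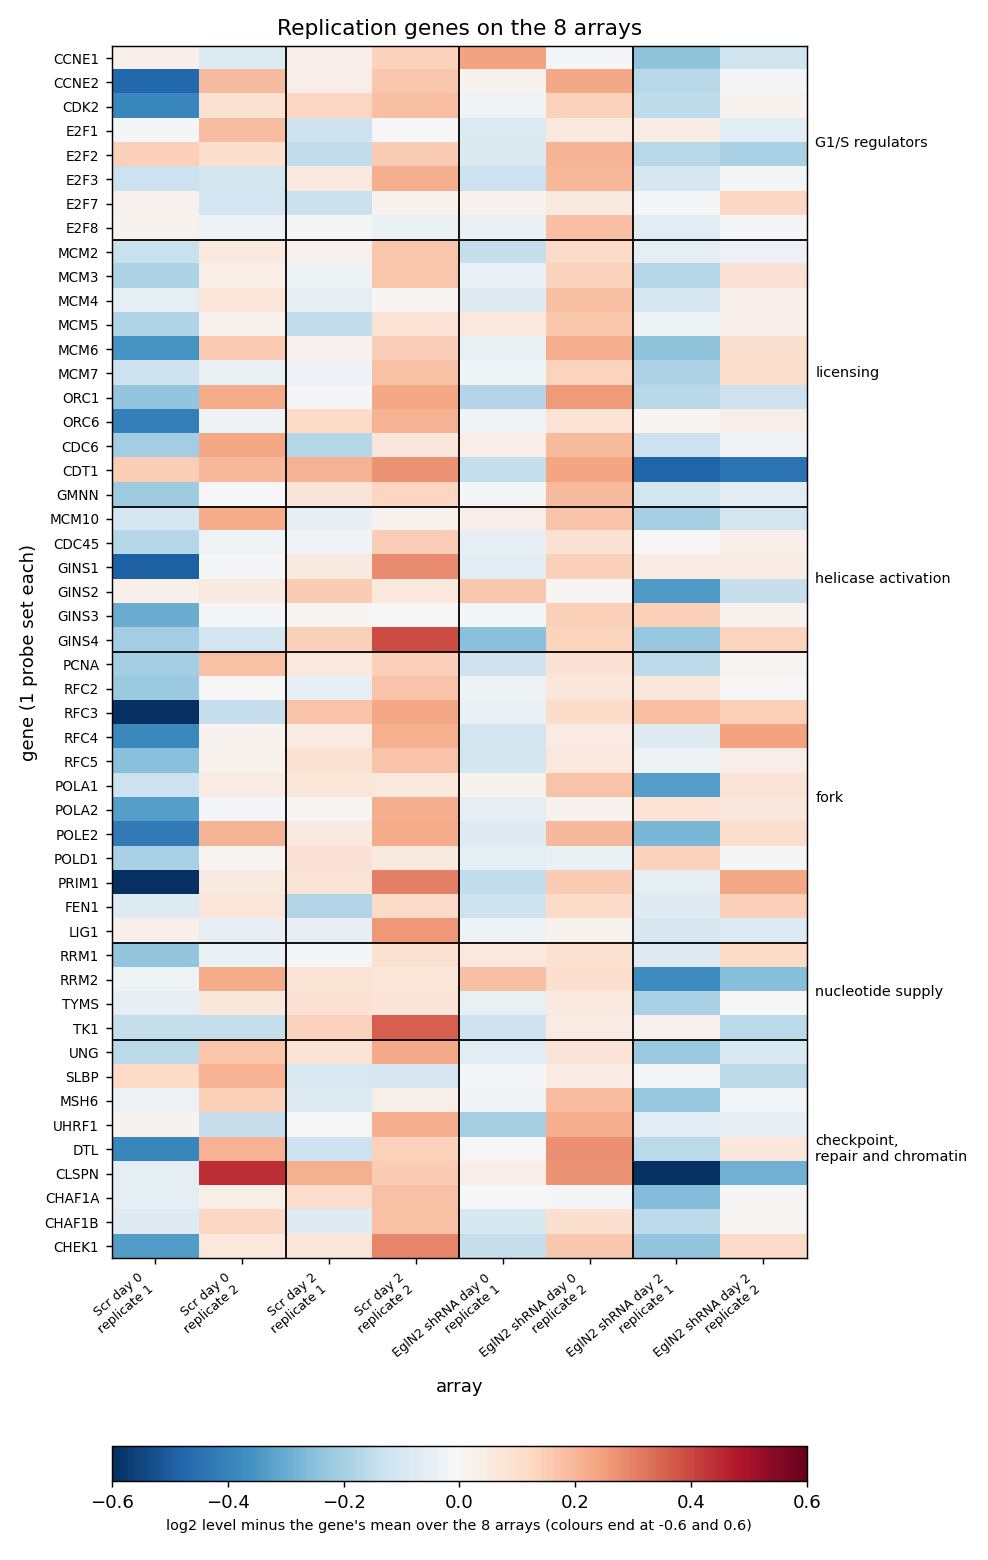
Colour shows the log2 level of each of the 50 genes (rows, by role) on each array (columns, by group and replicate), less that gene's mean over the 8 arrays. Blue cells are frequent on Scr day 0 replicate 1, the lowest array for 25 genes, and CDT1, RRM2 and CLSPN are blue on both EglN2 shRNA day 2 arrays.

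The first comparison asked how the genes differed after 48 h of doxycycline in the cells with the EglN2 hairpin. The change was negative for 37 of the 50 genes, or 74.0%, against 47.8% of all named probe sets, with a median of -0.09 against 0.005 (log2). The ribonucleotide reductase subunit RRM2 (-0.46, SE 0.12), the licensing factor CDT1 (-0.51, SE 0.13), the checkpoint adaptor claspin (CLSPN, -0.68, SE 0.19), the GINS subunit GINS2 (-0.33, SE 0.11) and cyclin E1 (CCNE1, -0.29, SE 0.12) had the smallest p. Leaving out 1 array gave -0.32 for CDT1 (EglN2 shRNA day 0 replicate 2), -0.45 for CLSPN (day 2 replicate 1) and -0.17 for CCNE1 (day 0 replicate 1). None of the 50 passed the threshold of 0.05 after adjustment over all named probe sets (0.00943% of which did), the smallest adjusted p being 0.427. With unadjusted limma p under 0.05, 5 genes were lower and 0 higher, against 3.04% and 2.73% of all named probe sets. The arrays of day 2 lay wholly below those of day 0 for 13 genes (26%, background 15.5%) and wholly above for 3 (6%, background 15.2%). The median was 0.002 without EglN2 shRNA day 0 replicate 2, when 24 of 50 changes were negative, and -0.02 without day 2 replicate 1. It was -0.17 without day 0 replicate 1 and -0.16 without day 2 replicate 2.

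The Scr line, read at the same days with the control hairpin, differed in the other direction. Of the 50 genes 38, or 76.0%, had a positive change, against 47.5% of all named probe sets, with a median of 0.15 against -0.01. The clamp loader subunit RFC3 (0.60, SE 0.16), thymidine kinase TK1 (0.39, SE 0.12), ORC6 (0.39, SE 0.13), GINS4 (0.43, SE 0.17) and GINS1 (0.41, SE 0.16) had the smallest p. Without Scr day 0 replicate 1, RFC3 was at 0.34, ORC6 at 0.20 and GINS1 at 0.17, and GINS1 was at 0.66 without Scr day 0 replicate 2. No gene passed with limma (smallest adjusted p = 0.260), as was so for all named probe sets (0% called). With unadjusted limma p under 0.05, 6 were higher (12%, background 7.49%) and SLBP, the histone mRNA stem-loop binding protein, was the 1 lower (2%, background 5.36%). Day 2 lay wholly above day 0 for 23 genes (46%, background 23%) and wholly below for SLBP alone (2%, background 24.8%). The median was 0.04 without Scr day 0 replicate 1, 0.08 without day 2 replicate 2, 0.25 without day 0 replicate 2 and 0.23 without day 2 replicate 1.

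The difference of these changes, EglN2 shRNA line minus Scr line, was negative for 46 of the 50 genes, or 92.0%, against 48.4% of all named probe sets. Its median was -0.24, against 0.005. The exceptions were E2F1, E2F7, FEN1 and SLBP, between 0.03 and 0.16. With limma 0 genes passed (0% of all named probe sets, smallest adjusted p of the 50 = 0.676), while 7 had an unadjusted p under 0.05, all lower (background 3.98% lower and 3.14% higher): CDT1, RRM2, CLSPN, GINS2, CCNE1, TK1 and GMNN. For 11 genes (22%) every possible change of the EglN2 shRNA line lay below every possible change of the Scr line (background 10.4%). The reverse held for 0 (background 10.1%). In 28 genes the change was negative in the EglN2 shRNA line and positive in the Scr line, against 21.5% of all named probe sets, and for CCNE1, CDT1, GMNN and GINS2 neither line's days overlapped (background 3.02%). The median was -0.12 without Scr day 0 replicate 1, with 39 genes negative, and -0.15 without EglN2 shRNA day 0 replicate 2, with 42 negative.

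**Figure D2:**
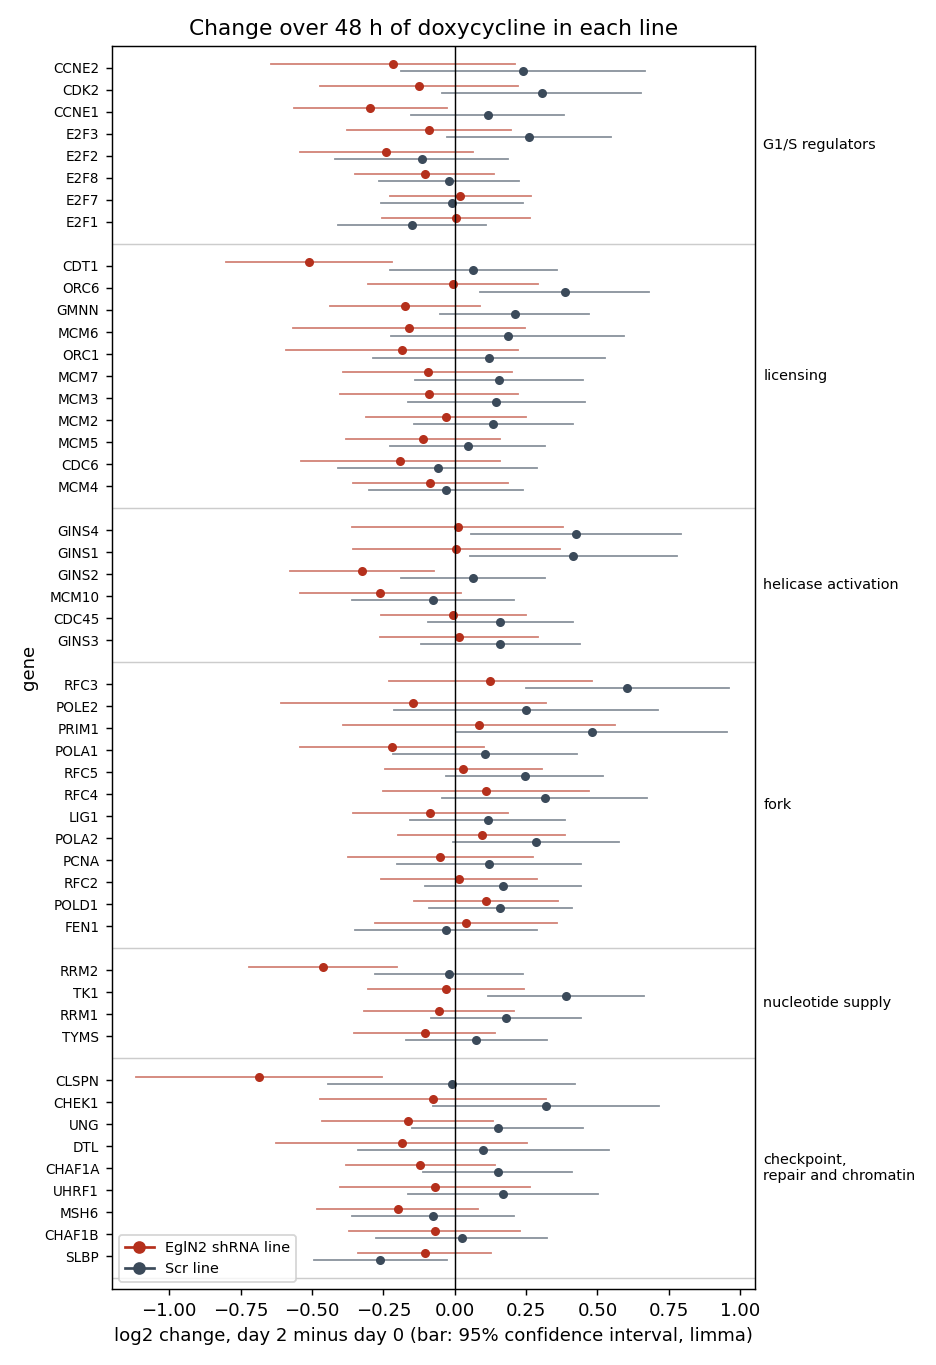
Points show the log2 change from day 0 to day 2 of each gene (rows, by role) in the EglN2 shRNA line (red) and the Scr line (dark), with 95% confidence intervals from limma. The red point lies left of the dark one for 46 of the 50 genes, and most intervals include 0.

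The arrays of EglN2 shRNA day 2 both lay below the other 6 for 8 of the 50 genes, against 3.79% of all named probe sets: CCNE1, E2F2, CDT1, MCM10, GINS2, LIG1, RRM2 and CLSPN. Those of Scr day 2 both lay above the other 6 for 6 genes (background 3.54%), which were ORC6, GINS4, RFC5, TYMS, TK1 and CHAF1A. ORC6 and RFC3 were lowest on both arrays of Scr day 0 (background 8.47%) and SLBP was highest there (background 8.43%). No other group stood apart for any of the 50 genes: 0 had both arrays below the other 6 in Scr day 2 (background 3.29%) or EglN2 shRNA day 0 (2.57%), and 0 had both above in EglN2 shRNA day 0 (3.43%) or day 2 (4.44%). The RNA came from whole cultures, so fewer cells in S phase and less of these RNAs per cell cannot be told apart.

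Upstream sequence is shown for the 5 genes with the smallest p in the EglN2 shRNA line, since they were also lowest together on both of its day 2 arrays. Each is the 250 bases before the gene's first listed start in RefSeq (GRCh38.p14), 5′ to 3′ on the gene's strand. Capitals mark the letters searched on both strands: TTTCGCGC, TTTGGCGC or TTTCCCGC, which are forms of the site of E2F factors, TTTGAA, the CHR element, and CCAAT, the box of NF-Y. TTTCCCGC was added after the sequences were seen. The windows are chr16:88803539-88803788 on the plus strand for CDT1, chr2:10122489-10122738 on the plus strand for RRM2, chr1:35769979-35770228 on the minus strand for CLSPN, chr16:85688955-85689204 on the minus strand for GINS2 and chr19:29811741-29811990 on the plus strand for CCNE1.
CDT1: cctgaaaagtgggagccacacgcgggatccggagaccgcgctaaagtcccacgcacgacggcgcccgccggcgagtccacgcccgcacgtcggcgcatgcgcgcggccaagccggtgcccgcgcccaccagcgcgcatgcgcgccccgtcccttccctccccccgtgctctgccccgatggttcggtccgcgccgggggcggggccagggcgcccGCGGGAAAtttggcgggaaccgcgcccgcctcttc
RRM2: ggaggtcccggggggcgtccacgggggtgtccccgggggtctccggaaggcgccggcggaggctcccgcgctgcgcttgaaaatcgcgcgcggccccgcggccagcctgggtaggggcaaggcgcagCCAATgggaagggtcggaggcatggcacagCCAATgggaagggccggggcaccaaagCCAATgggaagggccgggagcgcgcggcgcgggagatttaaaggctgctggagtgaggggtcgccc
CLSPN: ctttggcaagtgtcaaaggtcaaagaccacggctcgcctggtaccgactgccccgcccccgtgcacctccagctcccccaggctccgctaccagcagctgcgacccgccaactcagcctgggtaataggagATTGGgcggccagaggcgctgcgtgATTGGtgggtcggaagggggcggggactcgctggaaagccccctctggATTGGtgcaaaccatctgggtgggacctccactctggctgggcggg
GINS2: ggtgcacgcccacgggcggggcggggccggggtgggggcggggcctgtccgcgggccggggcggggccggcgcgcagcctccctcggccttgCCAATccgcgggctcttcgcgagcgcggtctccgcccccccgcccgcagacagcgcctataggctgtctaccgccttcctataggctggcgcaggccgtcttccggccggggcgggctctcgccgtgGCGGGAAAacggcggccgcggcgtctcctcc
CCNE1: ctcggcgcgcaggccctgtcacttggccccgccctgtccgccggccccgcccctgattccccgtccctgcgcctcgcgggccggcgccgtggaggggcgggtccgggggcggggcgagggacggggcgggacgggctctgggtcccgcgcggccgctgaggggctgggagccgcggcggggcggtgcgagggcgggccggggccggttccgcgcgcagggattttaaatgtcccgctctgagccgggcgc

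The windows of CDT1 and GINS2 each hold 1 match to the added E2F letters, on the opposite strand as GCGGGAAA. RRM2 and CLSPN hold 3 CCAAT matches each, those of CLSPN on the opposite strand as ATTGG, and GINS2 holds 1. CCNE1 holds none of the letters searched in this window. Promoter entries were matched for 44 of the 50 genes. Of these, 25 (56.8%) hold CCAAT, against 33% of 27305 genes with an entry, and 7 (15.9%) hold TTTCGCGC or TTTGGCGC, against 0.996%. None of the genes shown holds TTTCGCGC or TTTGGCGC in its window. With TTTCCCGC, added after the sequences were seen, the count was 16 (36.4%) against 2.38%, and it includes CDT1 and GINS2. TTTGAA was in the windows of 2 of the 44, E2F3 and RRM1 (4.55%), against 13.6% of all. A match describes these letters only and names no factor bound there.

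Of the licensing genes, 11 of 11 had a negative change with the EglN2 hairpin, with a median of -0.11, and in the Scr line the change was positive for 9 of 11, with a median of 0.14. The first median was -0.01 without EglN2 shRNA day 0 replicate 2 and -0.02 without day 2 replicate 1, and the second was 0.03 without Scr day 0 replicate 1 and 0.04 without Scr day 2 replicate 2. CDT1, the helicase loading factor (probe set 7997839), stood out among them. CDT1 read 9.69 and 9.74 in Scr day 0, 9.75 and 9.81 in Scr day 2, 9.40 and 9.78 in EglN2 shRNA day 0, and 9.06 and 9.10 in EglN2 shRNA day 2. The last pair lies below all other arrays, while the pair before it is spread over 0.38. Its difference of changes was -0.57 (SE 0.18, 95% confidence interval -0.99 to -0.16, unadjusted p = 0.0114, limma adjusted p = 0.676). Over the alternative settings it lay between -0.77 and -0.39.

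GMNN, the inhibitor of CDT1 (probe set 8117225), read 9.82 and 10.03 in Scr day 0, 10.11 and 10.16 in Scr day 2, 10.02 and 10.22 in EglN2 shRNA day 0, and 9.92 and 9.97 in EglN2 shRNA day 2. The days did not overlap in either line, with day 2 the higher in Scr and the lower in EglN2 shRNA. Its difference of changes was -0.39 (SE 0.17, interval -0.76 to -0.01, adjusted p = 0.696). ORC6, a subunit of the origin recognition complex (probe set 7995354), read 8.47 and 8.85 in Scr day 0, 9.0 and 9.09 in Scr day 2, 8.86 and 8.96 in EglN2 shRNA day 0, and 8.89 and 8.92 in EglN2 shRNA day 2. Here the Scr day 0 pair was the low one, and the EglN2 shRNA line differed by 0.005 between days. The difference of changes of ORC6, -0.39 (SE 0.19), was -0.20 when Scr day 0 replicate 1 was left out.

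The 6 subunits of the MCM ring kept within a narrow range of change: -0.16 to -0.03 in the EglN2 shRNA line and -0.03 to 0.19 in the Scr line, with SEs of 0.12 to 0.18. Among them MCM6 had the smallest p in the difference of changes (-0.35, SE 0.26, limma adjusted p = 0.758). That of MCM7 was close (-0.25, SE 0.19). MCM6 (probe set 8055426) read 10.52 and 11.03 in Scr day 0, 10.90 and 11.02 in Scr day 2, 10.83 and 11.09 in EglN2 shRNA day 0, and 10.63 and 10.97 in EglN2 shRNA day 2. The groups overlap throughout, and the gap between replicates, 0.51 in Scr day 0, was larger than either line's change. Leaving out Scr day 0 replicate 1 took its difference of changes to -0.09, and leaving out replicate 2 took it to -0.60. The value was -0.21 without EglN2 shRNA day 0 replicate 2 and -0.17 with day 2 replicate 1 of that line left out.

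For the 6 genes that activate the helicase, the EglN2 shRNA line had a median change of 0 with 3 genes negative, and the Scr line 0.16 with 5 positive. With EglN2 shRNA day 0 replicate 1 left out the first median was -0.14 and 6 of 6 were negative, with day 0 replicate 2 left out it was 0.08, and with day 2 replicate 2 left out -0.10. The Scr median was 0.07 without day 0 replicate 1 and 0.27 without day 0 replicate 2. GINS2 differed from its partners in the GINS complex in size: with the EglN2 hairpin it differed by -0.33 between days (SE 0.11), while GINS1, GINS3 and GINS4 read 0.005 (SE 0.16), 0.02 (SE 0.12) and 0.01 (SE 0.17). The difference between subunits was not tested. GINS2 (probe set 8003204) read 11.40 and 11.42 in Scr day 0, 11.52 and 11.43 in Scr day 2, 11.53 and 11.38 in EglN2 shRNA day 0, and 11.03 and 11.23 in EglN2 shRNA day 2. The last pair is below the other 6 arrays, which span 0.15. Its difference of changes was -0.39 (SE 0.16, interval -0.75 to -0.03, unadjusted p = 0.0353, adjusted p = 0.684), between -0.49 and -0.29 over the alternative settings.

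The remaining GINS genes had a lowest or a highest array in the Scr line. GINS1 (probe set 8061471) read 9.94 and 10.42 in Scr day 0, 10.48 and 10.71 in Scr day 2, 10.36 and 10.57 in EglN2 shRNA day 0, and 10.47 on both arrays of EglN2 shRNA day 2. GINS4 (probe set 8146130) read 8.88 and 8.98 in Scr day 0, 9.23 and 9.48 in Scr day 2, 8.84 and 9.22 in EglN2 shRNA day 0, and 8.86 and 9.22 in EglN2 shRNA day 2. The differences of changes were -0.41 (SE 0.23) for GINS1 and -0.41 (SE 0.23) for GINS4, with adjusted p of 0.712 and 0.713. GINS1 ran from -0.65 (Scr day 0 replicate 2 left out) to -0.17 (Scr day 0 replicate 1 left out), and GINS4 was at -0.23 without EglN2 shRNA day 0 replicate 2 and at -0.23 with day 2 replicate 1 left out. GINS3 (probe set 7996211) had 8.30 and 8.59 in Scr day 0 and between 8.59 and 8.74 on the other 6 arrays.

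MCM10, a factor of helicase activation (probe set 7926259), read 10.02 and 10.34 in Scr day 0, 10.07 and 10.14 in Scr day 2, 10.16 and 10.29 in EglN2 shRNA day 0, and 9.92 and 10.01 in EglN2 shRNA day 2. The last pair was below the rest by 0.01. For MCM10 the difference of changes, -0.19 (SE 0.18), became -0.03 with Scr day 0 replicate 1 left out, -0.34 with replicate 2 of that group left out, -0.12 with EglN2 shRNA day 0 replicate 2 left out and -0.11 after quantile normalization. CDC45 had changes of -0.005 (SE 0.11) in the EglN2 shRNA line and 0.16 (SE 0.11) in the Scr line.

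Nucleotide supply had 4 genes, negative in 4 of 4 in the EglN2 shRNA line (median -0.08) and positive in 3 of 4 in the Scr line (median 0.13). The first median was -0.05 with EglN2 shRNA day 0 replicate 2 left out, -0.14 with day 0 replicate 1 left out and -0.18 with day 2 replicate 2 left out. The second was 0.05 without Scr day 0 replicate 1 and 0.21 without Scr day 0 replicate 2. The median difference of changes, -0.33, ran from -0.38 to -0.23 when single arrays were left out. RRM2, the small subunit of ribonucleotide reductase (probe set 8040223), read 9.92 and 10.17 in Scr day 0, 10.03 and 10.02 in Scr day 2, 10.13 and 10.05 in EglN2 shRNA day 0, and 9.57 and 9.69 in EglN2 shRNA day 2. Both EglN2 shRNA day 2 values lie below the other 6. The difference of changes was -0.44 (SE 0.16, interval -0.81 to -0.07, unadjusted p = 0.0234, adjusted p = 0.676), between -0.57 and -0.32 over the alternatives. The large subunit RRM1 (probe set 7937915) read 11.22 and 11.42 in Scr day 0, 11.45 and 11.55 in Scr day 2, 11.52 and 11.55 in EglN2 shRNA day 0, and 11.38 and 11.58 in EglN2 shRNA day 2. RRM1 therefore overlapped between days in the EglN2 shRNA line, where day 2 minus day 0 was -0.05 (SE 0.12). For RRM1 the difference of changes, -0.23 (SE 0.17), was -0.14 without Scr day 0 replicate 1, the same with EglN2 shRNA day 2 replicate 1 left out, and -0.14 after quantile normalization.

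TK1, which salvages thymidine (probe set 8018849), was the mirror case, with its high values in the Scr line. TK1 read 11.00 on both arrays of Scr day 0, 11.28 and 11.50 in Scr day 2, 11.02 and 11.19 in EglN2 shRNA day 0, and 11.17 and 10.98 in EglN2 shRNA day 2. Only the Scr day 2 pair stood above the rest. The difference of changes was -0.42 (SE 0.17, interval -0.81 to -0.03, unadjusted p = 0.0363, adjusted p = 0.684). TYMS, thymidylate synthase (probe set 8019842), read 10.40 and 10.52 in Scr day 0, 10.54 and 10.53 in Scr day 2, 10.41 and 10.51 in EglN2 shRNA day 0, and 10.26 and 10.45 in EglN2 shRNA day 2. All 8 values fall within 0.28, and the difference of changes was -0.18 (SE 0.16). That value was -0.09 with EglN2 shRNA day 2 replicate 1 left out, -0.28 with replicate 2 left out and -0.11 after quantile normalization.

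Fork genes had the highest median change of the 6 roles in both lines with all arrays. In the EglN2 shRNA line 8 of 12 were positive with a median of 0.03, which was -0.06 without day 0 replicate 1 or without day 2 replicate 2. In the Scr line 11 of 12 were positive with a median of 0.21, which was 0.09 without day 0 replicate 1. RFC3, a subunit of the clamp loader (probe set 7968563), read 10.23 and 10.76 in Scr day 0, 11.07 and 11.13 in Scr day 2, 10.86 and 11.01 in EglN2 shRNA day 0, and 11.08 and 11.04 in EglN2 shRNA day 2. The Scr day 0 pair was the low one, its change to day 2 was 0.60 (interval 0.25 to 0.96, unadjusted p = 0.0037, adjusted p = 0.260), and day 2 was above day 0 in both lines. RFC2, RFC4 and RFC5 had changes of 0.02 to 0.11 in the EglN2 shRNA line and 0.17 to 0.32 in the Scr line.

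PRIM1, the catalytic subunit of primase (probe set 7964271), read 10.68 and 11.36 in Scr day 0, 11.39 and 11.61 in Scr day 2, 11.16 and 11.46 in EglN2 shRNA day 0, and 11.25 and 11.54 in EglN2 shRNA day 2. Its largest gap, 0.68, was between the replicates of Scr day 0. POLA1, the catalytic subunit of polymerase alpha (probe set 8166525), read 10.05 and 10.23 in Scr day 0, 10.25 and 10.24 in Scr day 2, 10.20 and 10.35 in EglN2 shRNA day 0, and 9.85 and 10.26 in EglN2 shRNA day 2. Only replicate 1 of the last group was low. POLE2, a subunit of polymerase epsilon (probe set 7978846), read 8.35 and 8.98 in Scr day 0, 8.83 and 9.0 in Scr day 2, 8.70 and 8.97 in EglN2 shRNA day 0, and 8.50 and 8.88 in EglN2 shRNA day 2. The differences of changes were -0.48 (SE 0.22) for RFC3, -0.32 (SE 0.20) for POLA1, -0.40 (SE 0.29) for POLE2 and -0.40 (SE 0.30) for PRIM1, with adjusted p of 0.698 to 0.762. Leaving out Scr day 0 replicate 1 took RFC3 to -0.21, POLE2 to -0.08 and PRIM1 to -0.06, and leaving out replicate 2 of that group took them to -0.75, -0.71 and -0.73. POLA1 was at -0.12 with EglN2 shRNA day 2 replicate 1 left out and at -0.53 with replicate 2 left out. With EglN2 shRNA day 0 replicate 2 or day 2 replicate 1 left out, POLE2 was at -0.26 and -0.20 and PRIM1 at -0.24 and -0.25. PCNA, the clamp itself, had -0.05 (SE 0.14) in the EglN2 shRNA line and 0.12 (SE 0.14) in the Scr line, and the flap nuclease FEN1 0.04 and -0.03 (SE 0.14 each).

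**Figure D3:**
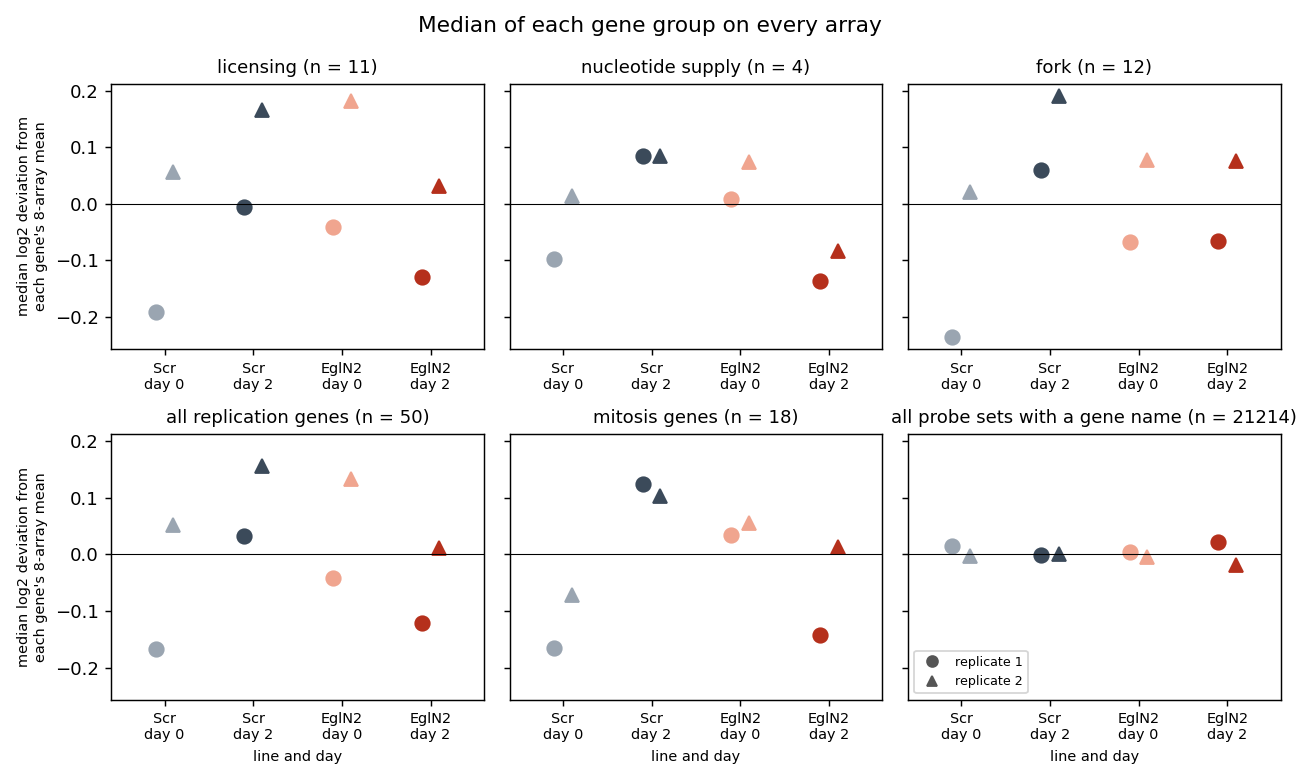
Each point is the median, over the genes named in the panel title, of the log2 level less the gene's mean over the 8 arrays, for 1 array (circle replicate 1, triangle replicate 2). The 50 replication genes lie at -0.17 on Scr day 0 replicate 1 and at 0.16 on Scr day 2 replicate 2, while the median of all named probe sets stays between -0.02 and 0.02.

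The medians by array show how the roles compared. Licensing genes were at -0.13 and 0.03 on the EglN2 shRNA day 2 arrays and at -0.04 and 0.18 on those of day 0. Nucleotide supply genes were at -0.14 and -0.08 against 0.01 and 0.07, so that the days did not overlap in this median. Gene by gene, only RRM2 of the 4 had days that did not overlap in that line (background 15.5% lower and 15.2% higher). Fork genes were at -0.07 and 0.08 on both days of that line, and at -0.24 and 0.02 in Scr day 0 against 0.06 and 0.19 in Scr day 2. The roles were set side by side without a test.

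The 8 regulators of G1 and S phase had a median change of -0.12 in the EglN2 shRNA line, 6 of them negative, and of 0.05 in the Scr line, 4 of them positive. The first median was -0.02, with 4 negative, when EglN2 shRNA day 0 replicate 2 was left out, -0.07 when day 2 replicate 1 was and -0.21 when day 0 replicate 1 was. The second ran from 0.007 (Scr day 0 replicate 2 left out) to 0.12 (Scr day 2 replicate 1 left out), with 0.03 when either of the others was left out. CCNE1, cyclin E1 (probe set 8027402), read 8.54 and 8.43 in Scr day 0, 8.55 and 8.65 in Scr day 2, 8.75 and 8.50 in EglN2 shRNA day 0, and 8.27 and 8.39 in EglN2 shRNA day 2. The last pair was the lowest, by 0.04. Its difference of changes was -0.41 (SE 0.17, interval -0.79 to -0.03, unadjusted p = 0.0361, adjusted p = 0.684), between -0.54 and -0.28 over the alternatives. CDK2, its kinase partner (probe set 7956076), read 10.40 and 10.88 in Scr day 0, 10.92 and 10.97 in Scr day 2, 10.77 and 10.93 in EglN2 shRNA day 0, and 10.64 and 10.81 in EglN2 shRNA day 2. The lowest value was Scr day 0 replicate 1, and the difference of changes was -0.43 (SE 0.22, adjusted p = 0.702). Without that array it was -0.19, and without Scr day 0 replicate 2 it was -0.67.

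CCNE2, cyclin E2 (probe set 8151871), read 9.52 and 10.18 in Scr day 0, 10.03 and 10.15 in Scr day 2, 10.01 and 10.22 in EglN2 shRNA day 0, and 9.82 and 9.98 in EglN2 shRNA day 2. The days of the EglN2 shRNA line did not overlap, while in the Scr line the day 0 values enclosed those of day 2. The difference of changes of CCNE2, -0.45 (SE 0.27), was -0.12 without Scr day 0 replicate 1 and -0.79 without replicate 2. E2F3, an activating E2F (probe set 8117128), read 7.93 and 7.95 in Scr day 0, 8.12 and 8.28 in Scr day 2, 7.93 and 8.26 in EglN2 shRNA day 0, and 7.96 and 8.05 in EglN2 shRNA day 2. Its difference of changes was -0.35 (SE 0.18, adjusted p = 0.702), and -0.19 with EglN2 shRNA day 0 replicate 2 left out. The other E2F genes, E2F1, E2F2, E2F7 and E2F8, had differences of changes between -0.13 and 0.16 with SEs of 0.15 to 0.19.

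Genes of the checkpoint, repair and chromatin were negative in 9 of 9 in the EglN2 shRNA line, with a median of -0.12, and positive in 6 of 9 in the Scr line, with a median of 0.10. The first median was -0.07 when replicate 1 of day 2 or replicate 2 of day 0 was left out, and the second was -0.07 without Scr day 0 replicate 1 and 0.02 without Scr day 2 replicate 2. CLSPN encodes claspin, the adaptor through which the checkpoint kinase CHEK1 is activated. On probe set 7914878 it read 9.12 and 9.62 in Scr day 0, 9.39 and 9.33 in Scr day 2, 9.22 and 9.45 in EglN2 shRNA day 0, and 8.41 and 8.89 in EglN2 shRNA day 2. The last pair was below all others, and its replicates were 0.48 apart. The difference of changes was -0.68 (SE 0.27, interval -1.29 to -0.06, unadjusted p = 0.0337, adjusted p = 0.680), between -0.93 and -0.42 over the alternatives. The smallest sizes were -0.42 without Scr day 0 replicate 1 and -0.43 with EglN2 shRNA day 2 replicate 1 left out. A second CLSPN probe set (7914851) read 8.10 and 8.39, 8.06 and 8.26, 8.07 and 8.32, and 7.42 and 7.98 in the same order of groups, with a difference of changes of -0.41 (SE 0.27).

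CHEK1 (probe set 7945014) read 10.99 and 11.39 in Scr day 0, 11.40 and 11.62 in Scr day 2, 11.19 and 11.49 in EglN2 shRNA day 0, and 11.09 and 11.44 in EglN2 shRNA day 2. Its low value was Scr day 0 replicate 1. UNG, which removes uracil from DNA (probe set 7958455), read 10.14 and 10.47 in Scr day 0, 10.38 and 10.53 in Scr day 2, 10.24 and 10.38 in EglN2 shRNA day 0, and 10.08 and 10.21 in EglN2 shRNA day 2. CHAF1A, the large subunit of the histone chaperone CAF-1 (probe set 8024843), read 9.27 and 9.36 in Scr day 0, 9.43 and 9.50 in Scr day 2, 9.32 and 9.31 in EglN2 shRNA day 0, and 9.06 and 9.33 in EglN2 shRNA day 2. The differences of changes were -0.40 (SE 0.25) for CHEK1, -0.32 (SE 0.19) for UNG and -0.27 (SE 0.16) for CHAF1A. Without Scr day 0 replicate 1 CHEK1 was at -0.20 and UNG at -0.15, and without replicate 2 of that group they were at -0.59 and -0.48. With EglN2 shRNA day 2 replicate 1 left out CHEK1 was at -0.22 and CHAF1A at -0.14, and with day 0 replicate 2 left out CHEK1 was at -0.24. SLBP was the only gene of this role with a positive difference of changes, at 0.155 (SE 0.15). Its change was -0.26 (SE 0.10, limma unadjusted p = 0.032, adjusted p = 0.357) in the Scr line. In the EglN2 shRNA line it was -0.11 (SE 0.10). The probe sets of UHRF1, a reader of hemimethylated DNA, gave opposite signs in the difference of changes, at -0.24 (SE 0.21) and 0.22 (SE 0.16).

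**Figure D4:**
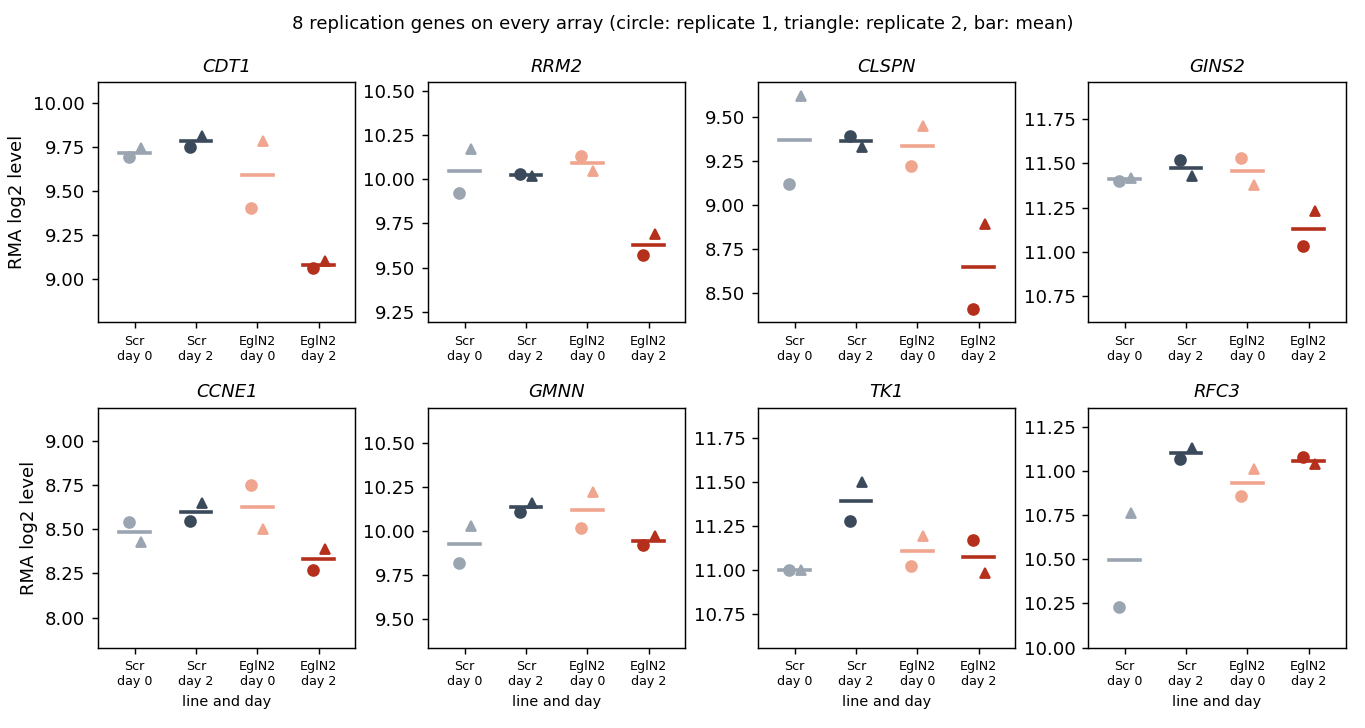
RMA log2 levels of 8 replication genes by line and day, with 1 point per array (circle replicate 1, triangle replicate 2) and a bar at the mean of the pair; every panel spans the same number of log2 units. CDT1, RRM2, CLSPN, GINS2 and CCNE1 have both EglN2 shRNA day 2 points below the other 6, TK1 has both Scr day 2 points above them, and RFC3 has both Scr day 0 points below them.

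Between the lines at day 0, before doxycycline, 40 of the 50 genes were higher in the EglN2 shRNA line, against 50.1% of all named probe sets, with a median difference of 0.10. The median was -0.04 without Scr day 0 replicate 1, with 21 genes positive, 0.03 without EglN2 shRNA day 0 replicate 2, and 0.19 without either of the other day 0 arrays. With limma 0 passed (0% of all named probe sets, smallest adjusted p of the 50 = 0.455), and 1 had an unadjusted p under 0.05, RFC3 at 0.44 (SE 0.16, background 5.16% higher and 5.27% lower). The other small p values belonged to ORC6 (0.25, SE 0.13), RRM1 (0.21, SE 0.12), GINS3 (0.22, SE 0.12) and GINS1 (0.28, SE 0.16). With Scr day 0 replicate 1 left out these 5 were at 0.18 for RFC3, 0.06 for ORC6, 0.12 for RRM1, 0.07 for GINS3 and 0.04 for GINS1, and with replicate 2 left out RFC3 was at 0.71, ORC6 at 0.44, GINS3 at 0.36 and GINS1 at 0.53. With EglN2 shRNA day 0 replicate 2 left out GINS3 was at 0.14 and GINS1 at 0.18, and RRM1 was at 0.12 after quantile normalization. The lines did not overlap for 6 genes with EglN2 shRNA higher (12%, background 22.2%) and 1 lower (2%, background 22.9%). CDT1 (-0.12, SE 0.13), RRM2 (0.04, SE 0.12) and CLSPN (-0.03, SE 0.19) overlapped. The day 0 arrays of each line are also those subtracted in that line's change, and all of them enter the difference of changes. The day 0 comparison is therefore not a separate observation from those.

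At day 2, after doxycycline, 44 of the 50 genes were lower in the EglN2 shRNA line, against 48.1% of all named probe sets, with a median difference of -0.14. CDT1 was at -0.70 (SE 0.13, interval -0.99 to -0.41, unadjusted p = 0.000365, adjusted p = 0.155), a level 61.6% of that in the Scr line. CLSPN followed at -0.71 (SE 0.19, adjusted p = 0.472), RRM2 at -0.39 (SE 0.12, adjusted p = 0.550), GINS2 at -0.34 (SE 0.11, adjusted p = 0.687) and TK1 at -0.32 (SE 0.12, adjusted p = 0.861). CLSPN was at -0.47 with EglN2 shRNA day 2 replicate 1 left out, and TK1 at -0.21 with Scr day 2 replicate 2 left out. With limma 0 of the 50 passed, against 0.0754% of all named probe sets, while 8 had an unadjusted p under 0.05, all lower (background 2.69% lower and 2.49% higher). The lines did not overlap for 24 genes with EglN2 shRNA lower (48.0%, background 14.8%) and for 1 higher, GINS3 (background 15.6%). The median was -0.05 without Scr day 2 replicate 2, -0.08 without EglN2 shRNA day 2 replicate 1 and -0.21 without Scr day 2 replicate 1 or EglN2 shRNA day 2 replicate 2. This comparison shares its EglN2 shRNA day 2 arrays with the change in that line and its Scr day 2 arrays with the change in the Scr line.

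A further 52 genes of replication that are not among the 50 were listed, of which 50 had a single-gene probe set. In the EglN2 shRNA line their median change was -0.018, with 29 negative (background 47.8%). In the Scr line it was 0.185, with 40 positive (background 47.5%), and 0.08 without Scr day 0 replicate 1. Between the lines at day 2 the median difference was -0.047, with 32 negative (background 48.1%). In the difference of changes 44 of these 50 were negative (background 48.4%), with a median of -0.21, which was -0.14 without Scr day 0 replicate 1. In that comparison 4 had an unadjusted limma p under 0.05, all lower (background 3.98%). With limma 0 passed in any of the 5 comparisons. The 3 with the smallest p were the histone chaperone ASF1A (-0.71, SE 0.24), the fork protein WDHD1 (-0.57, SE 0.22) and the nucleotide hydrolase SAMHD1 (-0.42, SE 0.17). ASF1A read 8.19 and 8.73 in Scr day 0, 8.94 and 8.96 in Scr day 2, 9.05 and 8.79 in EglN2 shRNA day 0, and 8.66 and 8.73 in EglN2 shRNA day 2. Its low value was again Scr day 0 replicate 1.

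Genes of mitosis, 18 of them, were read beside the replication genes. Their median change was -0.12 in the EglN2 shRNA line, with 16 of 18 negative (background 47.8%). In the Scr line it was 0.25, with 17 of 18 positive (background 47.5%). In both lines 0 passed the threshold (background 0.00943% and 0%). At an unadjusted limma p under 0.05 there were 0 in the EglN2 shRNA line (background 3.04% lower and 2.73% higher). The Scr line had 7, all higher (background 7.49%). The first median was -0.03 without EglN2 shRNA day 2 replicate 1. The median difference of changes was -0.34, with 17 of 18 negative (background 48.4%). At an unadjusted limma p under 0.05 there were 6, all lower (background 3.98%). Leaving out Scr day 0 replicate 1 gave a median of -0.28, and leaving out EglN2 shRNA day 2 replicate 1 gave -0.24. On the arrays their medians were -0.17 and -0.07 in Scr day 0, 0.12 and 0.10 in Scr day 2, 0.04 and 0.05 in EglN2 shRNA day 0, and -0.14 and 0.01 in EglN2 shRNA day 2. What the share of dividing cells contributed to the replication genes' values was not tested.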

How the data were processed

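Each of the 8 samples was hybridised to its own array. What the authors deposited is a log2 level for every probe set; the submitters' processing notes name RMA and Affymetrix Expression Console, without versions. RMA subtracts background, equalizes the arrays and combines probes, and so compresses differences of dim genes. The values were used as deposited. Of 33297 probe sets, 21214 carry a gene name and were tested. Where a probe set has a single gene, its symbol was brought up to date from RefSeq's table of GRCh38.p14, in which 19429 of 19460 were found by gene ID. No build is named for the array, so probe sets have no coordinates. Promoter sequence is RefSeq's.

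Group means were fitted with limma 3.58.1 in R 4.3.3 (lmFit, eBayes; 4 residual and 5.53 prior degrees of freedom). Tests were two-sided, with Benjamini-Hochberg adjustment over the 21214 and a threshold of 0.05. The script was tested on simulated data, with added changes larger than any seen in the genes described here. That test does not cover changes of the sizes reported. No exact permutation test was made, since with 2 against 2 its smallest p is 0.333. A gene with several probe sets is represented by that with the highest mean. Array values were given for the 4 genes of each role with the smallest p in the difference of changes and the 5 with the smallest p in each other comparison, and of other replication genes the 3 with the smallest p were named. The genes, lists and roles were chosen with earlier results of these data known. Alternatives were the arrays fitted, a replicate block, an intensity-dependent prior, all probe sets, no dim probe sets, quantile normalization and each array left out. Scanner files were not analysed here.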

Additional observations from a re-analysis of the deposited data

Results flagged for a closer look

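For 4 genes every change from day 0 to day 2 was negative in the EglN2 shRNA line and positive in the Scr line, whichever arrays are paired. Their differences of changes were -0.57 for CDT1, -0.41 for CCNE1, -0.39 for GMNN and -0.39 for GINS2 (log2). The limma test of that difference did not pass for them, at adjusted p of 0.676 to 0.696. Of all named probe sets, 3.02% had the same pattern. The pattern was not particular to these 4 genes. Among the 18 mitosis genes CDK1, CCNB1, BUB1 and KIF20A had it. Among the replication genes listed beyond those described here, RPA2, DUT, ASF1A and CCNA2 had it. The array medians of the nucleotide supply genes (RRM1, RRM2, TYMS and TK1) did the same, with a difference of -0.28, which was not tested. None of these nucleotide supply genes did so by itself. The array medians of the 18 mitosis genes had the same pattern. In the Scr line they were -0.166 and -0.072 at day 0 against 0.124 and 0.104 at day 2. In the EglN2 shRNA line they were 0.035 and 0.055 against -0.142 and 0.014. No group had 4 or more arrays, so no array was tested as an outlier within its group.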

How the results depend on the processing

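None of the 50 genes passed the threshold in any of the 5 comparisons with all arrays, the replicate block, an intensity-dependent prior, quantile normalization, without dim probe sets, with only the compared arrays or without single arrays. The numbers of probe sets called over all genes were 2 in the EglN2 shRNA line, 0 in the Scr line, 0 in the difference of changes, 0 between lines at day 0 and 16 at day 2. With the replicate block they were 13, 42 and 32 in the EglN2 shRNA line, the Scr line and between lines at day 2. With a prior following intensity they were 6 in the Scr line, 2 in the difference of changes and 26 at day 2. With all probe sets of the table, or only the arrays compared, they were 0 in the EglN2 shRNA line and 0 at day 2. Without single arrays they ran from 0 to 2 in the EglN2 shRNA line and from 0 to 15 at day 2. The cause was not tested. The median of the 50 genes without single arrays ran from -0.35 to -0.12 in the difference of changes and from -0.04 to 0.19 between lines at day 0. The EGLN2 difference between lines at day 0 ran from -0.135 to 0.055 without single arrays, its sign turning without EglN2 shRNA day 0 replicate 1.

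The replicate numbers are not stated to mark a pairing. Deviations of same-numbered arrays correlated at 0.098 to 0.271 between groups over all named probe sets. With the replicate block, 16 of the 50 genes had an unadjusted p under 0.05 in the difference of changes, all lower (background 5.86%), in place of 7, and the smallest adjusted p was 0.358 (CDT1). In the Scr line 12 were higher (background 9.89%) in place of 6 and 1 lower, at day 0 between lines 3 were higher (7.24%) in place of 1, in the EglN2 shRNA line 6 were lower (3.92%) in place of 5 and at day 2 between lines 10 were lower (3.7%) in place of 8. The smallest adjusted p of any gene and comparison under the block was 0.0718 (CDT1 at day 2), in place of 0.155.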
